A study of Mus musculus with 12 samples.

Results

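TNFdARE mice carry a Tnf allele that lacks the AU-rich element of its messenger RNA, and the question examined here is how far the change from WT to TNFdARE differs, gene by gene, between 2 tissues of these mice, the ileum and the synovium of the ankle. All 12 libraries of the series enter this comparison, and they form 4 groups of 3 biological replicates, namely TNFdARE ileum, WT ileum, TNFdARE synovium and WT synovium. The WT mice were littermates of the TNFdARE mice. The labels give no treatment, age, strain background or number of altered Tnf copies. Each gene has 3 quantities in what follows, all on the log2 scale. The ileum effect and the synovium effect are TNFdARE minus WT within a tissue. The tissue difference is the synovium effect minus the ileum effect, so that a positive value means a more positive change in the synovium. It was estimated for 16964 of 46603 genes, those with enough counts to be tested.

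AU-rich elements are stretches of repeated ATTTA pentamers in the 3′ untranslated region of short-lived messages. Proteins such as tristetraprolin bind them and direct the message to decay, and deletion of the element in Tnf leads to excess TNF. Mice with this allele are known for inflammation of the terminal ileum together with arthritis and are used as a model of spondyloarthritis, in which gut and joint disease occur together. The allele is in every cell, so the model does not separate the cells that make TNF from those that respond. The ileum is lined by absorptive, goblet and Paneth cells over immune-rich connective tissue, whereas the synovium is a thin layer of fibroblasts and macrophages over fat and vessels. TNF acts through its receptors on NF-kB, which switches on chemokines, adhesion molecules and its own inhibitors in many cell types.

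The wild-type sequence of the most pentamer-dense 30 bases of the Tnf 3′ untranslated region is shown because it is of the kind of element that names the allele; the extent of the deletion is not given in the sources used here. It lies at chr17:35199679-35199708 on the minus strand (GRCm38), bases 437 to 466 of the 764-base untranslated region of ENSMUST00000025263, and holds 5 of that region's 8 pentamers, in capitals.
Tnf ATTTA cluster: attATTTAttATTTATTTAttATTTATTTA

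The promoter windows below, from RefSeq (GRCm38.p6), contain letters of an NF-kB motif, GGGA followed by any base and then TTTCC, searched on both strands in the 250 bases before each gene's start. They are shown for 3 chemokine genes that rose in both tissues and for 2 cytokine genes whose change differed between them, all chosen after their letters and values were seen. Of the chemokine genes, Cxcl3 stayed under a mean of 1 count per 1000000 in ileum. The motif is in capitals; in Csf1 and Ltb it is on the opposite strand and so reads as its reverse complement. Of 32851 promoter windows of this length, 0.356% held it, and of the 15889 windows of tested genes 0.409%. It was in 7 of 873 windows of genes more positive in synovium (0.802%) and in 7 of 1125 windows of genes more negative in synovium (0.622%), and these shares were not tested against each other.
Cxcl1 (chr5:90890995-90891244, plus strand): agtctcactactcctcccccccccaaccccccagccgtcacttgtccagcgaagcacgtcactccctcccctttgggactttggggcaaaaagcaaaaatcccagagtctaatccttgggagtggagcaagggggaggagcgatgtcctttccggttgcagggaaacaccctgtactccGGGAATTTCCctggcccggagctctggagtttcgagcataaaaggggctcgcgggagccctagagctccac
Cxcl2 (chr5:90903649-90903898, plus strand): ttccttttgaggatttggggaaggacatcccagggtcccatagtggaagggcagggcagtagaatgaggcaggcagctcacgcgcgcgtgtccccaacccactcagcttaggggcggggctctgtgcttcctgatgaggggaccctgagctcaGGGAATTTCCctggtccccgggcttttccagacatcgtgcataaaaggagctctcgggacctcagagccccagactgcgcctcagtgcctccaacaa
Cxcl3 (chr5:90785851-90786100, plus strand): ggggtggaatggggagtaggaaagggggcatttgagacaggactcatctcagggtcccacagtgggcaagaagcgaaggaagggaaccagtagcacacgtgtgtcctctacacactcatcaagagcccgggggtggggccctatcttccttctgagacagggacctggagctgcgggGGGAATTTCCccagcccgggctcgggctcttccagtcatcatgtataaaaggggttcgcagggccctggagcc
Csf1 (chr3:107760470-107760719, minus strand): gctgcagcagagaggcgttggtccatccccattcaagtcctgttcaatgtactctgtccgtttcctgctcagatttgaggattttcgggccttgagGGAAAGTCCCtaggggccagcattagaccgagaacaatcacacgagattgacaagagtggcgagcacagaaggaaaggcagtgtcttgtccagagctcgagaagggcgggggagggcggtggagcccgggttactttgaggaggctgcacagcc
Ltb (chr17:35194257-35194506, plus strand): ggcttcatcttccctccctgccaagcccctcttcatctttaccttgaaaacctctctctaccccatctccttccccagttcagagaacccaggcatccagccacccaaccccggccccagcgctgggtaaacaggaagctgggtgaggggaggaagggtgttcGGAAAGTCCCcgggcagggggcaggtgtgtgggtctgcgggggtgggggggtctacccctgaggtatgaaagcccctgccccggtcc

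The libraries held 14267834 to 16224402 counts. Tnf (ENSMUSG00000024401, chr17:35199381-35202007, minus strand) was at 82.8, 17.2 and 47.4 CPM (counts per 1000000 scaled library counts) in the TNFdARE ileum against 2.63, 1.39 and 1.62 in WT, and at 38.4, 32.6 and 28.3 in the TNFdARE synovium against 2.15, 2.02 and 1.89 in WT. Neither tissue's groups overlapped. The ileum effect was 4.70 (adjusted p = 0.00167), the synovium effect 4.03 (adjusted p = 8.78e-04), and the tissue difference -0.67 ± 0.71 (SE, adjusted p = 0.582) did not pass the test. TNFdARE ileum replicate 2 had the lowest Tnf of its group, and the libraries of that group spread more than the others: the median SD of log2 CPM over 9339 genes was 0.13 in TNFdARE ileum and 0.0984 to 0.109 in the other groups. Markers fitted the labelled tissues, with summed absorptive enterocyte markers at 29885 to 32089 CPM in WT ileum and 109 to 118 in WT synovium. Skeletal muscle transcripts differed between the synovium groups, at 3410.5 to 13555 CPM in TNFdARE and 17839.6 to 37417 in WT, and so did adipocyte transcripts, at 1453 to 2382 and 3562 to 4561 CPM. Other cell type sums were separate there too, in either direction. Cartilage markers were at 3873 to 4988 CPM in TNFdARE and 7111 to 9441 in WT, and synovial fibroblast markers at 5651 to 6201 and 15838 to 18104. Monocyte and macrophage markers were higher in TNFdARE, at 6306 to 7943 and 2198 to 2779 CPM. Replicate 3 of each group was female and replicates 1 and 2 were male by Xist and Y-linked counts. In bulk tissue, fewer cells of a type and less RNA per cell cannot be told apart.

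The genotype effect differed between the tissues for 2050 genes, 12.1% of those tested at a Benjamini-Hochberg adjusted p under 0.05 in edgeR's quasi-likelihood test. The effect was more positive in synovium for 896 genes (5.28%) and more negative for 1154 (6.80%), and for 429 of the 2050 the difference was at least 4-fold. Within the ileum 1827 genes rose and 895 fell (16.0% called), and within the synovium 1728 rose and 1928 fell (21.6% called). These counts come from the fit of all 12 libraries and include genes called in both tissues. With the ileum fitted by itself, 637 genes rose and 242 fell. When single libraries were left out, the number risen in ileum ran from 950 (without WT ileum replicate 2) to 2402 and the number fallen from 261 (without TNFdARE ileum replicate 3) to 2421, both highest without TNFdARE ileum replicate 2. The synovium numbers ran from 1047 to 2410 risen and from 900 to 2071 fallen, both lowest without TNFdARE synovium replicate 3 and highest without TNFdARE ileum replicate 2. The counts of tissue differences also depend on single libraries. The 896 became 1814 without TNFdARE ileum replicate 2, 472 without TNFdARE ileum replicate 3, 499 without TNFdARE synovium replicate 3 and 532 without WT synovium replicate 3. The 1154 became 553 without TNFdARE ileum replicate 3, 513, 528 and 484 without WT ileum replicates 1, 2 and 3 in turn, 516 without TNFdARE synovium replicate 3, and 695 and 639 without WT synovium replicates 1 and 3. Of the 2050 calls, 791 (38.6%) were made in each of the 12 fits that left out a library. Scaling by library size alone moved the more positive share of the calls from 43.7% to 31.2%, while the median tissue difference over all genes moved from -0.08 to -0.15.

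A covariate for the muscle level of each synovium library kept 190 of the 2050 calls (9.27%). The muscle levels of the TNFdARE and WT synovium groups did not overlap (mean log2 CPM of the muscle list 6.785, 7.711 and 8.712 against 9.005, 9.38 and 10.24), so muscle content and genotype cannot be told apart in this covariate. Where a gene named below lost its call with the covariate, its adjusted p is given, and none of the 55 gene lists kept more than 3 called members with it. A block on animal number across the tissues gave 509 more positive and 593 more negative genes. The design text gives 3 mice per strain, but no label ties the numbers of the 2 tissues to the same mouse.

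Among the 13871 genes measured in both tissues (a mean of at least 1 CPM in at least 1 genotype of each), 1929 (13.9%) differed, while 18.1% were called in ileum and 23.5% in synovium. The 13.9% is the background for the counts of list members with a called tissue difference given below. For list members called within a tissue, the background is 12.4% risen and 5.69% fallen in ileum. In synovium it is 11.9% risen and 11.6% fallen. A gene can enter the set measured in both tissues through its level in 1 genotype alone. Counts and medians of lists with members of low level are thus partly set by that filter. Most of the 1929 genes were called in a single tissue. Of them, 507 rose in synovium with no call in ileum, and 469 rose in ileum with no call in synovium. Another 389 fell in synovium with no call in ileum, and 173 fell in ileum with no call in synovium. A further 97 fell in ileum and rose in synovium, 96 did the reverse, and 22 moved the same way in both by different amounts. The other 76 more positive and 100 more negative genes had no call in either tissue alone. The point estimates of the 2 effects had opposite signs in 77.8% of the 1929 genes and in 43.8% of all 13871. The 1929 were selected for a difference between these same estimates, which by itself raises their share.

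**Figure D1:**
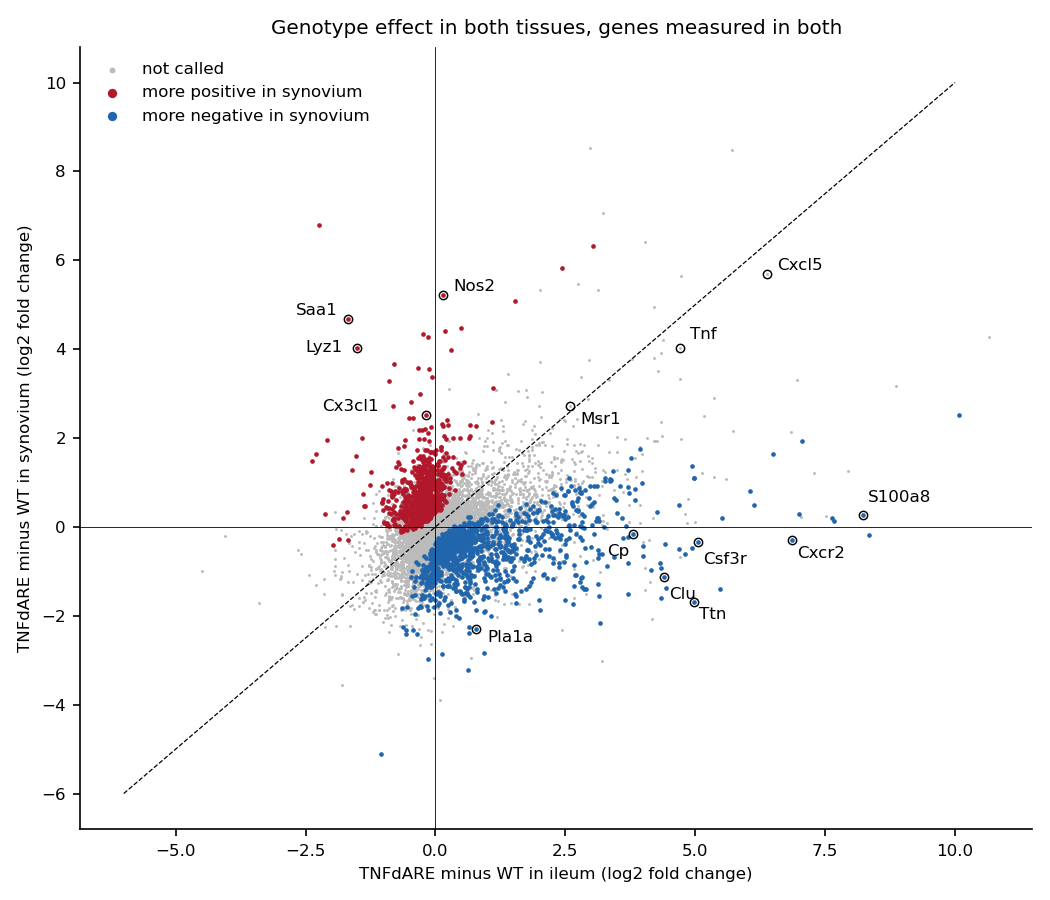
Each point is 1 of 13871 genes measured in both tissues, placed by its TNFdARE minus WT log2 fold change in ileum (horizontal) and synovium (vertical); coloured points have a called tissue difference and the dashed line marks equal effects. Tnf, Cxcl5 and Msr1 lie near the line at high values of both, S100a8, Cxcr2 and Csf3r far to the right near 0, and Nos2 and Cx3cl1 high near 0.

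**Figure D2:**
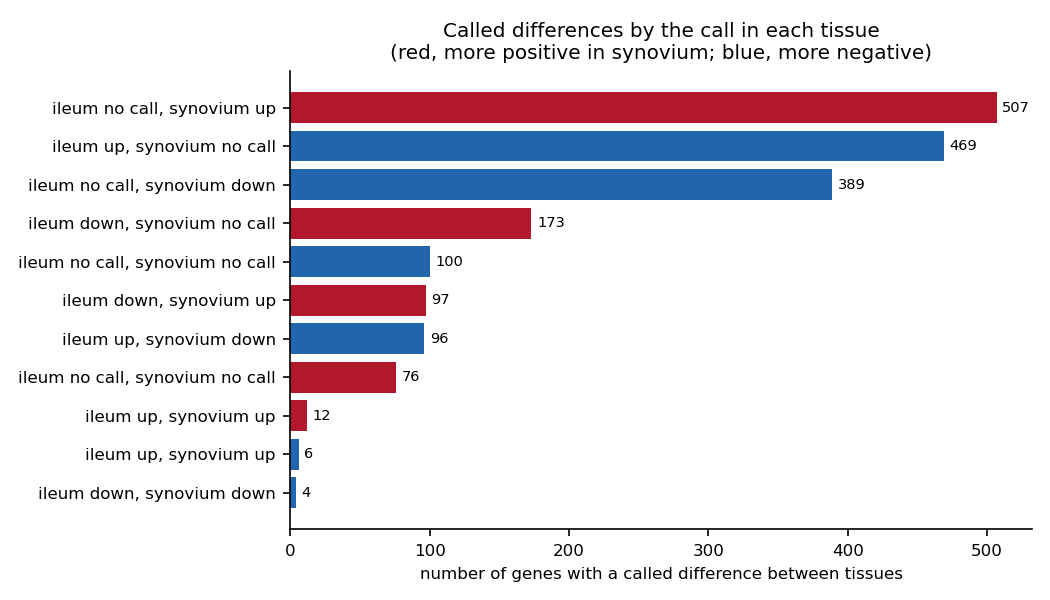
Bars count the 1929 genes measured in both tissues with a called tissue difference, by their call within each tissue (up, down or no call). The longest bars, 507, 469 and 389 genes, are called in 1 tissue, and 97 and 96 genes are called in opposite directions.

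A shared part of the response was also present. Of the genes measured in both tissues, 405 rose in each, which is 23.6% of those that rose in ileum and 24.5% of those that rose in synovium, and 137 fell in each, 17.4% and 8.52%. Of all 13871 genes measured in both, 11.9% rose in synovium and 12.4% in ileum, and 11.6% fell in synovium and 5.69% in ileum. The overlaps were not tested against these shares. For 297 of the 542 genes called the same way in both tissues, the 95% interval of the tissue difference lay within 1 log2 unit of 0. Msr1 (ENSMUSG00000025044, chr8:39581685-39642673, minus strand), a macrophage scavenger receptor, was among those with the largest shared effect, at 60.1, 32.2 and 52.6 CPM in TNFdARE ileum and 9.22, 5.92 and 8.94 in WT ileum. In synovium it was at 127, 88.4 and 99.7 and 19.1, 13.9 and 14.6 CPM. The groups were separate in each tissue, and the tissue difference of 0.14 ± 0.36 had a 95% interval of -0.65 to 0.92. Havcr2, which encodes the checkpoint receptor TIM-3, rose by 1.91 in ileum and 2.08 in synovium, and its interval ran from -0.59 to 0.92. C1s1, a serine protease of the classical complement pathway, rose by 2.00 and 1.88 (interval -0.82 to 0.58). Arl4c, a small GTPase, rose by 1.94 and 1.84 (interval -0.83 to 0.65), and the metalloprotease gene Adamts7 by 1.81 and 1.59 (interval -0.63 to 0.19).

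TNF and NF-kB target genes moved upward in both tissues. Of 18 measured in both, 16 rose in ileum and 15 in synovium, none fell, and the median effect was 2.20 in ileum and 1.39 in synovium, beside medians of 0.01 and -0.01 over all genes measured in both. The tissue difference was called for 4 of the 18, 2 in each direction, and for 7 with the replicate number as a block within tissue. Leaving out single libraries gave 2 (without ileum WT replicate 2) to 7 (without ileum TNFdARE replicate 2). Among the chemokines whose promoters are printed above, which attract neutrophils through CXCR2, Cxcl1 was at 14.7, 3.52 and 12.2 CPM in TNFdARE ileum and 1.11, 0.146 and 0.352 in WT ileum, and at 63.9, 38.4 and 49.0 and 3.05, 0.521 and 1.31 CPM in synovium. It rose in each, by 4.21 (adjusted p = 0.00675) and 4.96 (adjusted p = 0.00117), and the tissue difference of 0.75 ± 1.10 (SE, adjusted p = 0.705) was not called. Cxcl2 rose by 4.28 and 3.51 and Cxcl3 by 4.50 and 4.23. The mean of Cxcl3 in ileum was under 1 CPM in both genotypes, so its ileum value rests on few counts. The related Cxcl5 rose by 6.38 and 5.69. None of these tissue differences was called, and their 95% intervals were wide, from -1.68 to 3.18 for Cxcl1, -3.34 to 1.79 for Cxcl2, -1.81 to 1.27 for Cxcl3 and -3.07 to 1.68 for Cxcl5. Relb, an NF-kB subunit, differed: it was at 152, 113 and 145 CPM in TNFdARE ileum and 96.1, 93.4 and 102 in WT, and at 66.0, 63.2 and 58.7 and 22.9, 21.7 and 27.2 in synovium. Its rise was larger in synovium, by 0.89 ± 0.16 (SE, adjusted p = 0.00863), a call lost with the muscle covariate (adjusted p = 0.0671).

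CC chemokines, which attract monocytes and lymphocytes, had median effects of 0.99 in ileum and 2.81 in synovium over 14 members. Of these, 3 rose and 1 fell in ileum, 9 rose in synovium, and the difference was called for 1, Ccl17. It was at 1.33, 2.68 and 4.50 CPM in TNFdARE ileum and 1.04, 0.219 and 1.62 in WT, and at 28.9, 43.6 and 23.6 and 0.763, 0.261 and 1.76 in synovium. Its tissue difference was 3.55 ± 0.97 (SE, adjusted p = 0.0401), and the call was lost in 7 of the 12 fits without a library, with the replicate block (adjusted p = 0.0585), without the low-count filter (adjusted p = 0.0818), with the muscle covariate (adjusted p = 0.165) and in limma-voom (adjusted p = 0.0738). With the replicate block, 3 of the 14 were called, and leaving out single libraries gave 0 (without ileum WT replicate 1) to 5 (without ileum TNFdARE replicate 1). Ccl2, the main monocyte attractant, rose by 4.04 and 6.42, a difference of 2.37 ± 0.71 (SE, adjusted p = 0.0545) that missed the threshold and passed it with the replicate block (adjusted p = 0.0208) and in DESeq2 (adjusted p = 0.00226).

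Neutrophil transcripts had the largest median ileum effect of the 25 cell type lists. Of 12 measured in both tissues, 10 rose in ileum and 2 in synovium, with medians of 5.02 in ileum and 0.23 in synovium, and 8 had a more negative effect in synovium (background 7.67% in that direction). The other tested members of the 19 on the list were measured in synovium only. S100a8, S100a9 and Cxcr2, under 1 CPM in each WT ileum library, passed the 1 CPM filter in ileum through their TNFdARE level alone. The ileum count, its median and rank, and the more negative count are thus partly set by that filter. Leaving out single libraries gave 5 (without ileum WT replicate 3) to 10 (without ileum TNFdARE replicate 2), the muscle covariate 3 and limma-voom with group weights 5. S100a8 (ENSMUSG00000056054, chr3:90668978-90670035, plus strand), a subunit of calprotectin, was at 60.5, 5.21 and 26.5 CPM in TNFdARE ileum and 0.139, 0 and 0.141 in WT ileum, where the counts were only 2, 0 and 2. In synovium its levels overlapped, at 278, 1112 and 515 CPM in TNFdARE and 281, 862 and 434 in WT. The tissue difference was -7.96 ± 1.69 (SE, adjusted p = 0.0173), and its size rests on those few counts in WT ileum. It lost its call in limma-voom (adjusted p = 0.173), without the low-count filter (adjusted p = 0.0513), with the animal block (adjusted p = 0.0824) and with the muscle covariate (adjusted p = 0.0684).

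Its partner S100a9 behaved alike in level, at 101, 9.37 and 48.8 against 0.555, 0.0730 and 0.141 CPM in ileum and 443, 1598 and 746 against 414, 1339 and 697 in synovium. The difference of -7.45 ± 1.46 (SE, adjusted p = 0.0120) lost its call in limma-voom (adjusted p = 0.136), with the animal block (adjusted p = 0.0712) and with the muscle covariate (adjusted p = 0.0611). Csf3r, the receptor for the neutrophil growth factor G-CSF, was at 239, 55.8 and 143 CPM in TNFdARE ileum and 5.96, 3.87 and 3.24 in WT, and at 69.1, 127 and 109 and 109, 164 and 113 in synovium. Only the ileum groups were separate, and the difference of -5.40 ± 0.68 (SE, adjusted p = 0.00194) held under all alternatives run. Cxcr2, the receptor for the CXC chemokines above, was at 33.3, 4.44 and 22.6 and 0.208, 0 and 0.282 CPM in ileum (WT counts 3, 0 and 4) and at 15.1, 44.0 and 28.9 and 25.3, 51.0 and 31.5 in synovium. Its difference was -7.15 ± 1.23 (SE, adjusted p = 0.00726), not called with the animal block (adjusted p = 0.0505).

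Genes of immature neutrophil granules, given for their levels and chosen after these were seen, were abundant in both synovium genotypes and near 0 in ileum. Ngp, a granule protein of precursors in marrow, was at 259, 1157 and 494 CPM in TNFdARE synovium and 244, 919 and 462 in WT synovium, and at 0 counts in each ileum library. Mpo, myeloperoxidase, was at 85.5, 389 and 209.8 and 75.4, 335 and 127 CPM in synovium, and had 1 count in the 6 ileum libraries together. Elane, neutrophil elastase, was at 21.9, 97.7 and 49.2 and 20.4, 82.1 and 31.6 CPM. In both genotypes replicate 2 was highest for these 3 genes. Summed over the whole neutrophil list, the synovium held 2323 to 7232 CPM in TNFdARE and 2565 to 6484 in WT, and the ileum 186 to 907 and 14.2 to 25.5; the part of these precursor transcripts in the synovium effect was not tested.

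**Figure D3:**
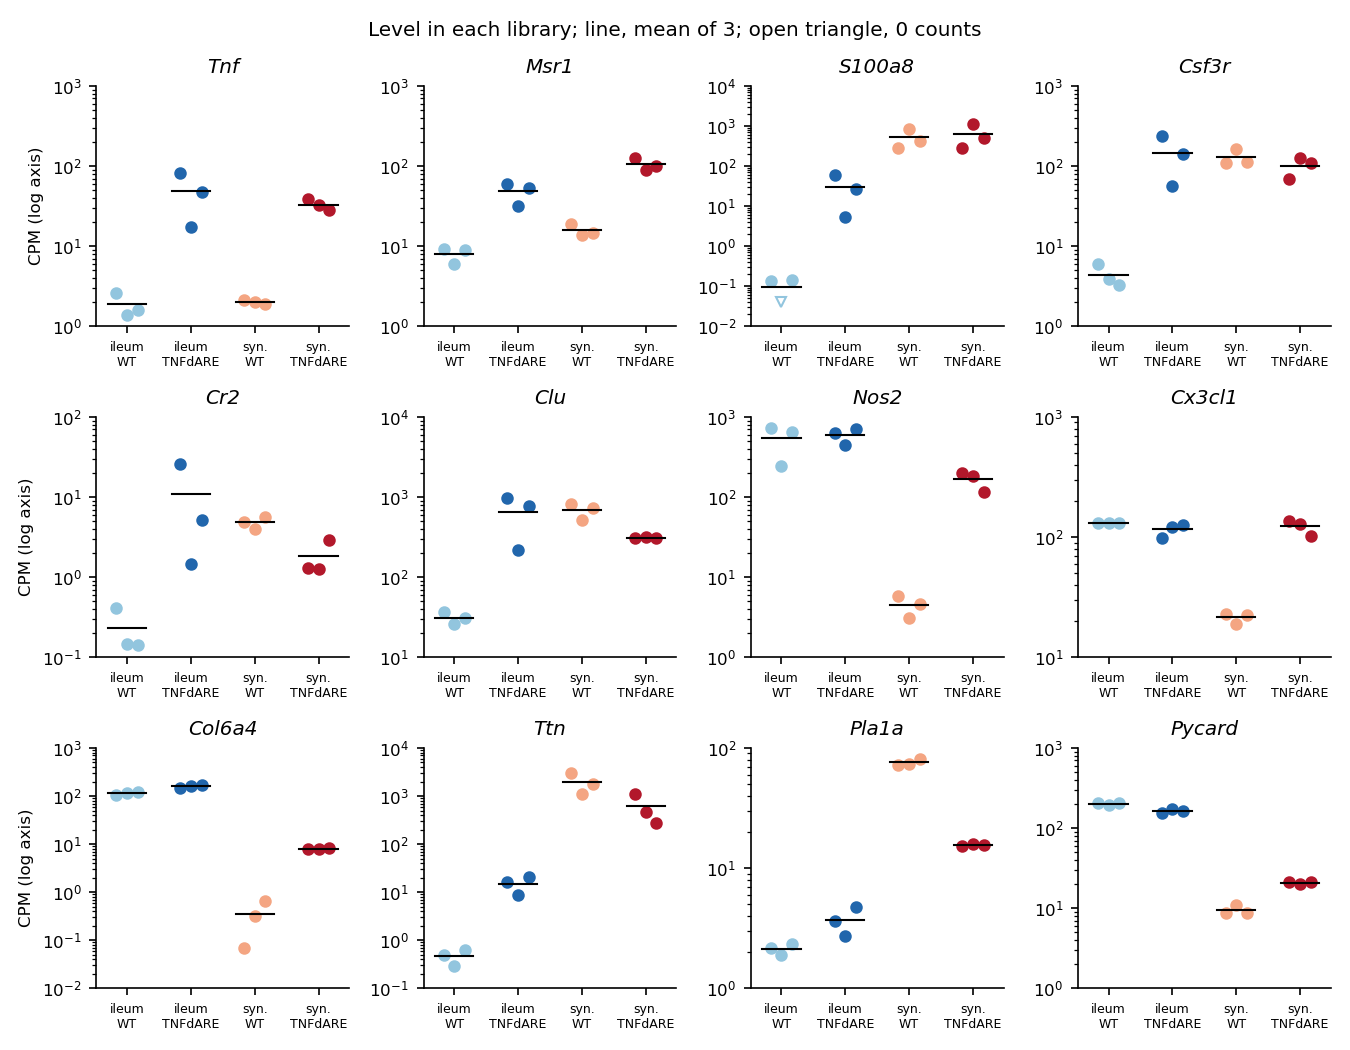
Level of 12 genes in each of the 12 libraries, as CPM on a log axis whose range differs between panels; points are libraries, the line is the mean of 3, and an open triangle marks 0 counts. Csf3r and Clu are separate by genotype in ileum and high in WT synovium, Nos2 and Cx3cl1 are separate in synovium and high in WT ileum, and Tnf and Msr1 are separate in both tissues.

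Mmp9 (ENSMUSG00000017737, chr2:164940780-164955850, plus strand), a gelatinase of neutrophils and osteoclasts, was at 147, 84.8 and 105 CPM in TNFdARE ileum and 8.04, 5.33 and 7.81 in WT. In synovium it was at 566, 1007 and 953 and 995, 1377 and 1050.3 CPM, with overlapping groups. The difference of -4.43 ± 0.39 (SE, adjusted p = 4.17e-04) held under all alternatives run. Il1b, the inflammasome-processed cytokine, was at 156, 23.7 and 96.4 and 4.44, 1.68 and 2.89 CPM in ileum and at 47.2, 46.0 and 68.3 and 26.4, 18.1 and 17.4 in synovium. Both tissues had separate groups, and the difference of -3.54 ± 0.82 (SE, adjusted p = 0.0225) was not called without WT ileum replicate 2 (adjusted p = 0.0551) or 3 (adjusted p = 0.0553), without the low-count filter (adjusted p = 0.0623), in limma-voom (adjusted p = 0.0673) or with the muscle covariate (adjusted p = 0.162). Acute phase and antimicrobial genes, 11 in number, had 8 risen and 2 fallen in ileum and 3 risen in synovium, with medians of 3.81 in ileum and 0.34 in synovium and 5 more negative and 1 more positive in synovium. Limma-voom called 1 of them and the muscle covariate 2. S100a8 and S100a9 are on this list too, so its ileum count, ileum median and more negative count are partly set by the 1 CPM filter. Cp encodes ceruloplasmin, a copper-carrying ferroxidase, and was at 399, 128 and 309 CPM in TNFdARE ileum and 24.8, 15.7 and 19.2 in WT. The synovium held 317, 373 and 276 and 364, 360.3 and 345 CPM, and the difference of -3.95 ± 0.48 (SE, adjusted p = 0.00162) held under all alternatives run.

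B cell transcripts rose in ileum. Of 14 B cell genes, 9 rose in ileum, none was called in synovium, and 10 had a more negative synovium effect, with medians of 3.26 in ileum and -1.09 in synovium. The count ran from 1 (without ileum WT replicate 2) to 14 (without ileum TNFdARE replicate 2) when single libraries were left out, and was 12 with the replicate block, 5 in limma-voom and 0 with the muscle covariate. Cr2 and Ms4a1, under 1 CPM in each WT ileum library, passed the 1 CPM filter in ileum through their TNFdARE level alone. The ileum count, its median and the more negative count are thus partly set by that filter. Summed B cell markers were at 70.03 to 558 CPM in TNFdARE ileum, 35.5 to 53.5 in WT ileum, 284 to 542 in TNFdARE synovium and 573 to 991 in WT synovium. Cr2 (ENSMUSG00000026616, chr1:195136811-195176716, minus strand), the complement receptor of B cells and follicular dendritic cells, was at 25.9, 1.48 and 5.13 CPM in TNFdARE ileum and 0.416, 0.146 and 0.141 in WT, and at 1.32, 1.27 and 2.90 and 4.92, 3.97 and 5.68 in synovium. The groups were separate in both tissues, in opposite order, although the synovium effect was not called, -1.40 (adjusted p = 0.257). The difference of -6.88 ± 1.37 (SE, adjusted p = 0.0130) was lost with the muscle covariate (adjusted p = 0.0973). Ms4a1, the CD20 gene, ranged widely among TNFdARE ileum libraries, at 29.2, 0.704 and 6.96 CPM against 0.555, 0.438 and 0.704 in WT, and was at 5.28, 15.4 and 14.4 and 20.2, 30.9 and 40.5 CPM in synovium. Its difference, -5.81 ± 1.41 (SE, adjusted p = 0.0274), was lost in 6 of the 12 fits without a library, without the low-count filter (adjusted p = 0.0753), in limma-voom (adjusted p = 0.0786), with the animal block (adjusted p = 0.129) and with the muscle covariate (adjusted p = 0.112).

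Of 10 genes of lymphoid follicles and lymphatics, 6 rose in ileum, 2 rose and 1 fell in synovium, and 4 were more negative and 2 more positive in synovium, 3 in all with the muscle covariate. Clu and Mfge8 encode secreted proteins, a chaperone and a bridge for uptake of dying cells, that follicular dendritic cells make among other cell types. Clu (ENSMUSG00000022037, chr14:65968483-65981547, plus strand) was at 978, 216 and 777 CPM in TNFdARE ileum and 36.8, 26.2 and 31.0 in WT, against 313, 317 and 307 and 809, 524 and 725 in synovium. Every TNFdARE library was above WT in ileum and below WT in synovium. The synovium effect by itself was not called, -1.13 (adjusted p = 0.0772), and the difference was -5.52 ± 0.62 (SE, adjusted p = 0.00129). Mfge8 was at 678, 262 and 567 and 77.4, 64.3 and 64.8 CPM in ileum and 266, 313 and 247 and 403, 389 and 364 in synovium, a difference of -3.35 ± 0.39 (SE, adjusted p = 0.00136). Both calls held under all alternatives run. Cxcl13, which guides B cells to follicles, went the other way: it was at 55.7, 16.4 and 26.4 and 4.44, 3.21 and 4.44 CPM in ileum and 28.9, 23.0 and 35.5 and 0.416, 0.0651 and 0.588 in synovium. It rose in each, more in synovium by 3.30 ± 0.77 (SE, adjusted p = 0.0238), and that difference was not called without TNFdARE ileum replicate 3 (adjusted p = 0.0539), TNFdARE synovium replicate 3 (adjusted p = 0.0532) or WT synovium replicate 2 (adjusted p = 0.0520), in limma-voom (adjusted p = 0.0710) or with the muscle covariate (adjusted p = 0.154).

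Of 20 T cell genes, 5 rose in ileum, 1 rose and 4 fell in synovium, and the difference was called for 3, all more negative in synovium, a share close to the 13.9% of all genes measured in both tissues, with a median difference of -1.36. The replicate block called 9 and the muscle covariate 0, and leaving out single libraries gave 0 (without ileum TNFdARE replicate 1) to 14 (without ileum TNFdARE replicate 2). Cd28, the main costimulatory receptor, was at 11.9, 7.75 and 9.56 CPM in TNFdARE ileum and 4.16, 3.21 and 3.94 in WT, and at 2.40, 6.05 and 4.52 and 10.4, 9.05 and 8.23 in synovium. It rose in ileum, 1.37 (adjusted p = 0.0121), and fell in synovium, -1.09 (adjusted p = 0.0225). Btla, an inhibitory receptor of B and T cells, was at 36.6, 8.03 and 19.5 and 4.09, 3.58 and 3.87 CPM in ileum and 18.0, 23.9 and 21.7 and 30.3, 32.0 and 46.9 in synovium. The differences were -2.46 ± 0.41 (SE, adjusted p = 0.00581) for Cd28 and -3.25 ± 0.61 (SE, adjusted p = 0.00969) for Btla. The muscle covariate ended both calls, with an adjusted p of 0.0576 for Cd28 and 0.0883 for Btla.

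Regulatory T cells restrain other immune cells and are the subject of the series' title. Their defining factor Foxp3 was at 9.40, 2.82 and 6.40 CPM in TNFdARE ileum and 1.11, 0.438 and 0.563 in WT, and at 2.76, 2.54 and 1.62 and 0.208, 0.847 and 0.849 in synovium. It rose in both, by 3.12 (adjusted p = 0.00564) and 1.84 (adjusted p = 0.0409), and the difference of -1.29 ± 0.80 (SE, adjusted p = 0.314) was not called. Il10, an anti-inflammatory cytokine of these and other cells, stayed at or under 1.16 CPM in every library, and its tissue difference, -0.36 ± 0.89 (SE, adjusted p = 0.838), could not be resolved at this depth. Of 16 regulatory T cell genes 10 rose in ileum and 6 in synovium, and 1 was called for the difference (3 with the replicate block, and 0 (without ileum TNFdARE replicate 3) to 6 (without ileum TNFdARE replicate 2) when single libraries were left out). Tbx21, the T-bet factor of interferon-producing lymphocytes, was low throughout, at 2.99, 1.06 and 1.76 and 1.66, 0.949 and 0.774 CPM in ileum and 0.600, 0.634 and 0.870 and 2.57, 2.15 and 3.07 in synovium. It fell in synovium and differed by -2.65 ± 0.58 (SE, adjusted p = 0.0182), lost with the muscle covariate (adjusted p = 0.124).

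Genes of the osteoclast and RANK ligand axis, which control bone resorption, had larger effects in ileum than in synovium. Of 15, 11 rose in ileum, 2 rose and 1 fell in synovium, and 9 had a more negative and 1 a more positive synovium effect. The medians were 2.21 in ileum and 0.11 in synovium. Leaving out single libraries gave 6 (without ileum TNFdARE replicate 3) to 12 (without ileum TNFdARE replicate 2), and the muscle covariate gave 2. Tnfsf11, the RANK ligand itself, was at 15.6, 5.64 and 13.4 CPM in TNFdARE ileum and 1.46, 0.219 and 1.13 in WT, and at 10.4, 7.61 and 15.2 and 13.2, 11.5 and 14.7 in synovium. The synovium groups overlapped and the difference was -3.86 ± 0.69 (SE, adjusted p = 0.00842). Its decoy receptor Tnfrsf11b, osteoprotegerin, was at 15.5, 11.7 and 13.1 and 11.0, 8.40 and 7.89 CPM in ileum. It fell in synovium, where it was at 30.6, 42.9 and 28.8 and 94.6, 70.9 and 78.1 CPM, and the difference was -1.82 ± 0.27 (SE, adjusted p = 0.00328). The receptor RANK, Tnfrsf11a, is the member that was more positive in synovium, at 43.4, 42.4 and 46.9 CPM in TNFdARE and 21.9, 23.0 and 19.1 in WT. In ileum it was at 106, 92.1 and 112 and 91.3, 82.5 and 94.3 CPM, a difference of 0.84 ± 0.14 (SE, adjusted p = 0.00535). Tnfsf11 and Tnfrsf11a were named after their values were seen. The WT ileum mean of Tnfsf11 was under 1 CPM, so it passed the 1 CPM filter in ileum through its TNFdARE level alone. The list's ileum count, ileum median and more negative count are thus partly set by that filter.

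Csf1 and Ltb carry the NF-kB letters printed above. Csf1, the growth factor of macrophages and osteoclast precursors, was at 101, 56.6 and 82.1 CPM in TNFdARE ileum and 23.4, 17.1 and 24.9 in WT, and at 213, 213 and 206 and 162, 158 and 186 in synovium. Its groups were separate in both tissues, but the synovium effect was small and not called, 0.32 (adjusted p = 0.247), and the difference was -1.55 ± 0.27 (SE, adjusted p = 0.00707). With the muscle covariate the adjusted p was 0.0721 for Tnfsf11, 0.0770 for Tnfrsf11b, 0.0877 for Tnfrsf11a and 0.0892 for Csf1. Its receptor Csf1r rose in both, by 2.57 and 1.11, and the difference of -1.46 ± 0.39 (SE, adjusted p = 0.0383) was lost in 10 of the 12 fits without a library, without the low-count filter (adjusted p = 0.0705), with the animal block (adjusted p = 0.0725) and with the muscle covariate (adjusted p = 0.213). Ltb, the lymphotoxin chain that maintains lymphoid tissue, was at 29.8, 5.42 and 13.8 and 3.19, 2.78 and 2.60 CPM in ileum and 4.74, 10.1 and 7.59 and 8.46, 13.6 and 12.9 in synovium. The difference of -3.15 ± 0.73 (SE, adjusted p = 0.0230) was lost in 5 of the 12 fits without a library, with the animal block (adjusted p = 0.0984) and with the muscle covariate (adjusted p = 0.0993).

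Adipocyte genes fell in synovium. Of 12, 10 fell in synovium, 2 rose in ileum, and 9 were called for the difference, all more negative in synovium, with medians of 0.27 in ileum and -1.22 in synovium. The muscle covariate called none of them. Adipoq, the adipocyte hormone adiponectin, was at 93.0, 117 and 84.1 CPM in TNFdARE synovium and 171, 179 and 260.01 in WT, and at 8.13, 12.1 and 7.38 and 5.34, 4.67 and 3.94 in ileum. Pnpla2, the triglyceride lipase of fat cells, was at 117, 131 and 90.1 and 253, 229 and 289 CPM in synovium and 148, 161 and 168 and 161, 149 and 144 in ileum. Groups were separate in synovium for both and overlapped in ileum for Pnpla2. The differences were -2.04 ± 0.32 (SE, adjusted p = 0.00495) and -1.26 ± 0.18 (SE, adjusted p = 0.00328). Of 16 endothelial genes 5 rose and 2 fell in ileum, 5 fell in synovium, and 3 were called for the difference, beside 13.9% of all genes measured in both tissues. That count was 6 with the replicate block, 0 with the muscle covariate and 2 (without ileum TNFdARE replicate 3) to 6 (without ileum TNFdARE replicate 2) when single libraries were left out. Cdh5, the cadherin of vessel walls, was at 34.9, 29.0 and 32.3 and 24.9, 25.0 and 27.1 CPM in ileum and 142, 120.4 and 134 and 161, 163 and 169.5 in synovium, rising in ileum and falling in synovium, and differing by -0.64 ± 0.12 (SE, adjusted p = 0.00877). None of these 3 kept its call once muscle level was a covariate, with an adjusted p of 0.0660 for Adipoq, 0.0790 for Pnpla2 and 0.112 for Cdh5.

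Complement genes showed both patterns. Of 17, 13 rose in ileum, 10 rose and 3 fell in synovium, 1 was more positive and 6 more negative in synovium, and none was called with the muscle covariate. Leaving out single libraries gave 4 (without ileum WT replicate 3) to 15 (without ileum TNFdARE replicate 2). Cd55, an inhibitor that protects host cells from complement, was at 79.9, 99.3 and 85.1 CPM in TNFdARE ileum and 62.6, 59.2 and 69.5 in WT, and at 99.1, 113 and 80.6 and 161, 144 and 176 in synovium, with separate groups in each tissue. It rose in ileum, 0.47 (adjusted p = 0.0349), and fell in synovium, -0.72 (adjusted p = 0.00406), a difference of -1.18 ± 0.18 (SE, adjusted p = 0.00447). Adding muscle level gave an adjusted p of 0.0931 for Cd55.

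**Figure D4:**
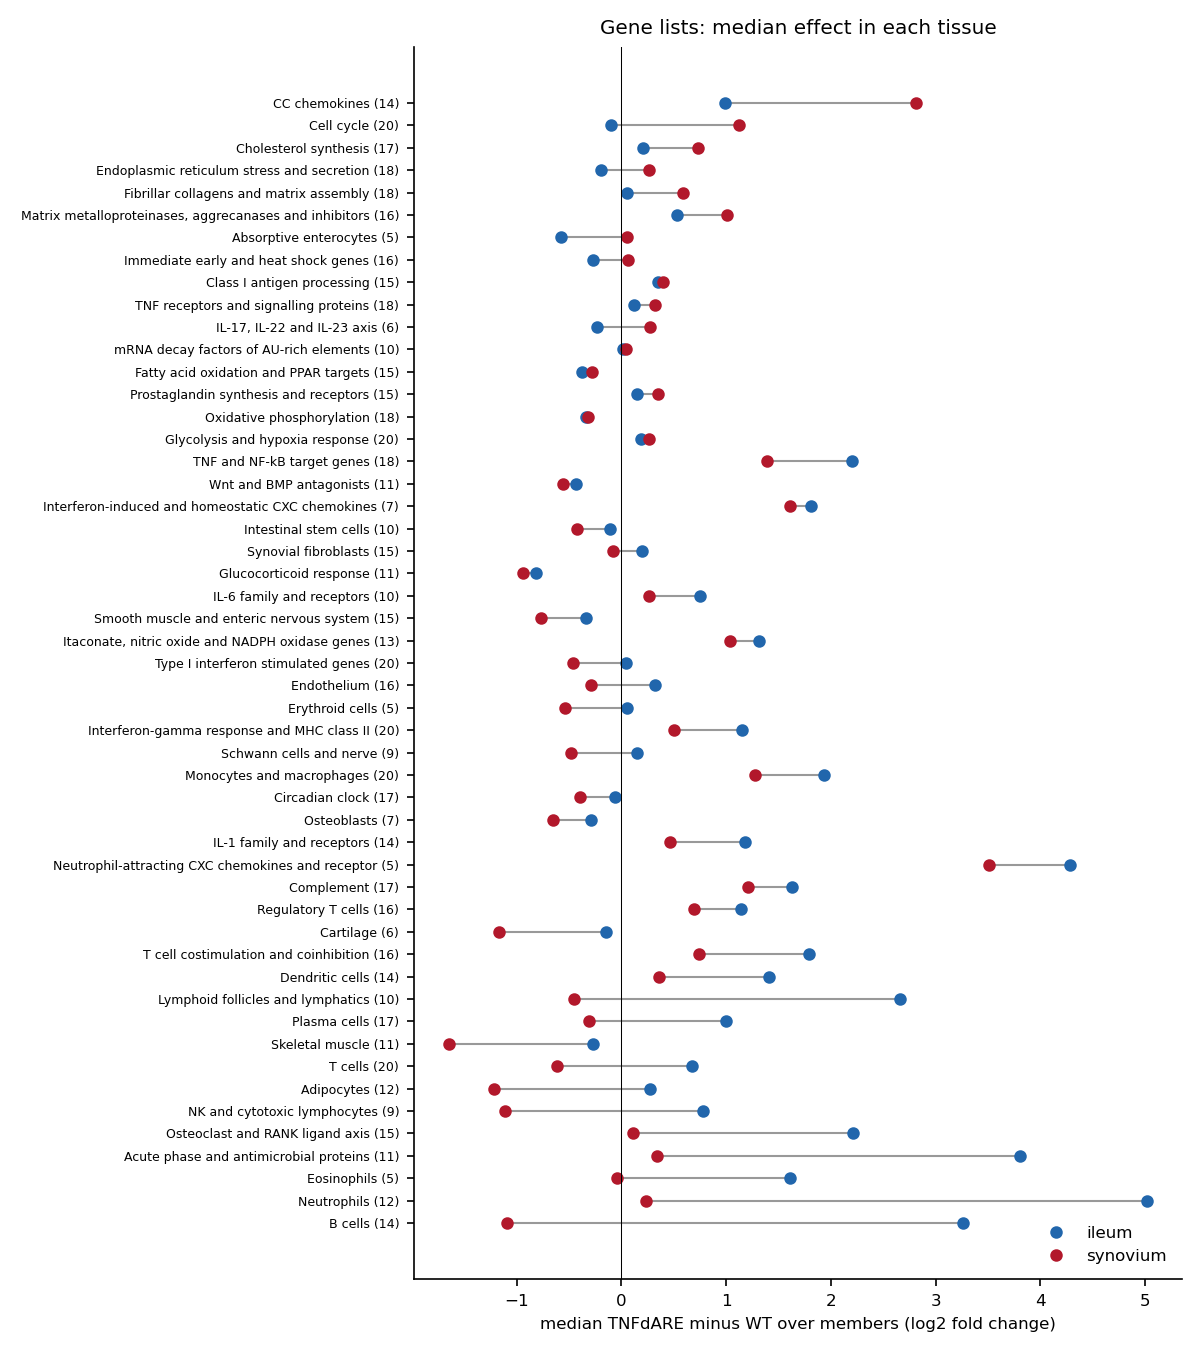
Median TNFdARE minus WT log2 fold change over the members of each gene list measured in both tissues (number of members in parentheses; lists with at least 5), in ileum and synovium, ordered by the median tissue difference. Lists such as B cells, neutrophils and acute phase proteins sit far to the right in ileum and near or below 0 in synovium, while cell cycle genes and CC chemokines sit further right in synovium.

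On the other side, Nos2 (ENSMUSG00000020826, chr11:78920787-78960254, plus strand), the inducible nitric oxide synthase, was at 200.4, 182 and 116 CPM in TNFdARE synovium and 5.82, 3.06 and 4.57 in WT. In ileum it was already high in WT, at 738, 246 and 653 CPM, and was at 631, 449 and 717 in TNFdARE, with overlapping groups. The synovium effect was 5.21 (adjusted p = 1.64e-04) and the tissue difference 5.08 ± 0.58 (SE, adjusted p = 0.00136), which held under all alternatives run. Arg1, an arginase that competes for the same substrate, was at 18.6, 5.02 and 10.6 CPM in TNFdARE synovium and 0.416, 0.261 and 0.914 in WT, and at 0.508, 1.27 and 1.48 and 1.11, 0.803 and 0.915 in ileum. The difference of 4.21 ± 0.84 (SE, adjusted p = 0.0123) was not called in limma-voom (adjusted p = 0.0608) or with the muscle covariate (adjusted p = 0.0510). Cx3cl1 (ENSMUSG00000031778, chr8:94772009-94782427, plus strand), the membrane-bound chemokine fractalkine, was at 137, 129 and 102 CPM in TNFdARE synovium and 23.1, 19.1 and 22.4 in WT. In ileum it was at 98.8, 122 and 127 and 132, 132 and 131, a level near that of the TNFdARE synovium in both genotypes. The difference of 2.70 ± 0.18 (SE, adjusted p = 2.06e-04) held under all alternatives run.

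Ptger4, a prostaglandin E2 receptor, followed the same pattern, at 42.2, 30.8 and 38.3 CPM in TNFdARE synovium and 19.1, 15.0 and 14.9 in WT, and 72.3, 68.0 and 75.6 and 68.4, 68.9 and 71.1 in ileum. The difference was 1.13 ± 0.17 (SE, adjusted p = 0.00418), and it held under all alternatives run. Casp8, the caspase of death receptor signalling, was at 59.7, 59.8 and 64.9 and 39.3, 41.1 and 43.0 CPM in synovium and 176, 148 and 181 and 200.4, 171 and 178 in ileum, a difference of 0.70 ± 0.13 (SE, adjusted p = 0.00786) that was lost with the muscle covariate (adjusted p = 0.122). In the synovial fibroblast list 2 of 15 genes were more positive and 4 more negative in synovium, 1 in all with the muscle covariate. Within synovium 3 of the 15 rose and 4 fell, and the median difference was -0.36. Summed over its 18 tested members, this list was at 5651 to 6201 CPM in TNFdARE synovium and 15838 to 18104 in WT. Pdpn, podoplanin of lining fibroblasts and lymphatic vessels, was at 139.7, 101 and 117 CPM in TNFdARE synovium and 30.4, 26.6 and 32.5 in WT, and at 14.1, 12.3 and 16.2 and 10.2, 8.62 and 8.45 in ileum. It rose in both, by 2.00 and 0.64, and the difference of 1.36 ± 0.20 (SE, adjusted p = 0.00370) held under all alternatives run.

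Among 18 genes of fibrillar collagens and matrix assembly, 9 rose in synovium and 1 in ileum, and the difference was called for 3 more positive and 2 more negative genes. Leaving out single libraries gave 2 (without ileum TNFdARE replicate 3) to 11 (without ileum TNFdARE replicate 2), and the muscle covariate gave none. Col6a3, a chain of collagen VI, was at 2347, 1741 and 2155 CPM in TNFdARE synovium and 1021, 885 and 749.99 in WT, and 129, 263 and 174 and 255, 261 and 258 in ileum. Postn, the matrix protein periostin, was at 1013, 658 and 1518 and 281, 366 and 319.6 CPM in synovium and 96.8, 167 and 88.3 and 139, 175 and 138 in ileum. Both were separate by genotype in synovium and overlapped in ileum. The differences were 1.69 ± 0.32 (SE, adjusted p = 0.00950) and 2.08 ± 0.43 (SE, adjusted p = 0.0158). With the muscle covariate the adjusted p was 0.0695 for Col6a3 and 0.178 for Postn, and with the animal block it was 0.0616 for Postn.

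Cell cycle genes rose in synovium. Of 20, 19 rose in synovium and none was called in ileum, the medians were -0.10 in ileum and 1.12 in synovium, and 9 were called for the difference, all more positive in synovium (background 6.24%). The count was 20 with the replicate block and 12 in limma-voom, ran from 3 (without ileum TNFdARE replicate 3) to 16 (without synovium WT replicate 2) when single libraries were left out, and was 0 with the muscle covariate. Cdk1, the kinase that drives mitosis, was at 20.9, 32.6 and 34.1 CPM in TNFdARE synovium and 7.90, 13.8 and 11.4 in WT, and at 40.6, 41.6 and 37.4 and 46.3, 45.8 and 42.3 in ileum. Tyms, thymidylate synthase, was at 13.3, 14.4 and 18.8 and 7.07, 10.2 and 9.79 CPM in synovium and 22.4, 25.0 and 23.8 and 32.7, 31.3 and 31.7 in ileum. Each was separate by genotype in both tissues, higher in TNFdARE synovium and lower in TNFdARE ileum, although neither ileum effect was called. The differences were 1.57 ± 0.29 (SE, adjusted p = 0.00859) and 1.20 ± 0.22 (SE, adjusted p = 0.00848). Mki67, the proliferation marker Ki-67, was at 159, 231 and 235 and 49.7, 135 and 96.2 CPM in synovium, and its difference of 1.23 ± 0.40 (SE, adjusted p = 0.0688) passed with the replicate block (adjusted p = 0.0109).

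Cholesterol synthesis genes, targets of SREBP2, gave 16 of 17 risen in synovium and 3 in ileum. For 8 the synovium effect was more positive and for none more negative, with medians of 0.21 in ileum and 0.73 in synovium. Leaving out single libraries gave 5 (without ileum TNFdARE replicate 3) to 10 (without ileum TNFdARE replicate 1), and the muscle covariate gave 0. Sqle, squalene epoxidase, was at 63.4, 52.8 and 60.001 CPM in TNFdARE synovium and 23.7, 16.3 and 25.1 in WT, and 252, 194 and 214 and 295, 186 and 243 in ileum. The difference was 1.57 ± 0.27 (SE, adjusted p = 0.00699). Of 18 genes of endoplasmic reticulum stress and secretion, 6 rose in synovium, none was called in ileum, and 8 were more positive in synovium. That count was 0 without WT synovium replicate 3 and 9 without WT ileum replicate 2, and it was 3 with library size scaling and 0 with the muscle covariate. Hspa5, the chaperone BiP, was at 673, 629 and 878 and 557, 478 and 443 CPM in synovium and 648, 508 and 645 and 729, 711 and 995 in ileum. Its difference of 1.00 ± 0.25 (SE, adjusted p = 0.0277) was lost in 4 of the 12 fits without a library and with the animal block (adjusted p = 0.0528). The muscle covariate gave an adjusted p of 0.0996 for Cdk1, 0.114 for Tyms, 0.0576 for Sqle and 0.236 for Hspa5.

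Several of the largest positive differences belong to genes that were abundant in ileum and rare in WT synovium. Each gene named in this paragraph was under 1 CPM in every WT synovium library. It thus passed the 1 CPM filter in synovium through its TNFdARE level alone, and this selection by itself favours a positive difference. Col6a4 (ENSMUSG00000032572, chr9:105989454-106096783, minus strand), another collagen VI chain, was at 7.92, 7.90 and 8.41 CPM in TNFdARE synovium and 0.0693, 0.326 and 0.653 in WT, where its counts were 1, 5 and 10. In ileum it was at 147, 162 and 172 and 106, 116 and 119.6 CPM. The difference was 3.99 ± 0.35 (SE, adjusted p = 3.90e-04). Inava, an adaptor in innate immune signalling and epithelial junctions, was at 4.20, 1.84 and 3.88 and 0.277, 0.0651 and 0.131 CPM in synovium (WT counts 4, 1 and 2) and 75.8, 105 and 108 and 118, 115 and 107 in ileum, a difference of 4.57 ± 0.54 (SE, adjusted p = 0.00146). Nr1h4, the bile acid receptor FXR, was at 2.34, 1.56 and 2.32 and 0.139, 0.130 and 0.196 CPM in synovium (WT counts 2, 2 and 3) and 95.5, 176 and 121 and 211, 228 and 238 in ileum. It fell in ileum and rose in synovium, a difference of 4.46 ± 0.50 (SE, adjusted p = 0.00119). Fendrr, a long noncoding RNA, was at 4.20, 2.65 and 3.88 and 0.277, 0 and 0.261 CPM in synovium (WT counts 4, 0 and 4) and 32.2, 51.6 and 39.3 and 40.01, 45.7 and 50.3 in ileum, a difference of 4.41 ± 0.55 (SE, adjusted p = 0.00173).

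Cdh1, the epithelial cadherin, named after its values were seen, also rose in synovium, at 12.8, 15.1 and 14.0 CPM in TNFdARE and 2.84, 2.28 and 3.66 in WT. In ileum it was at 966, 1099 and 1077 and 1148, 1144 and 1037, and the difference was 2.34 ± 0.20 (SE, adjusted p = 3.49e-04). The calls for Col6a4, Inava, Nr1h4, Fendrr and Cdh1 held under all alternatives run. The synovium groups overlapped for Epcam, Krt19 and Muc2, other epithelial transcripts. Epcam was at 6.24, 8.65 and 5.91 CPM in TNFdARE synovium and 7.21, 5.99 and 6.92 in WT, Krt19 at 2.22, 1.96 and 1.97 and 2.43, 1.69 and 1.63, and Muc2 at 3.06, 2.88 and 1.91 and 3.67, 1.76 and 1.70. Vil1, villin of the brush border, was at 0.300, 0.461 and 0.0580 and 1.18, 0.651 and 1.24 CPM there and between 1493 and 2816 in ileum. The absorptive enterocyte list summed to 157 to 233 CPM in TNFdARE synovium and 109 to 118 in WT, and the goblet list to 4.52 to 6.23 and 5.03 to 11.2. Of the 5 enterocyte members measured in both tissues, 0 rose in synovium and 2 fell, Vil1 among them (-1.87, adjusted p = 0.0161). The higher enterocyte sum thus goes with no called rise among these 5.

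Saa1 (ENSMUSG00000074115, chr7:46740497-46742980, minus strand), an acute phase apolipoprotein, was lower in the TNFdARE ileum and higher in the TNFdARE synovium. It was at 76.4, 182 and 131 CPM in TNFdARE ileum and 645, 240.1 and 375 in WT, and at 10.7, 3.46 and 8.58 and 0.139, 0.261 and 0.457 in synovium, where the WT counts were 2, 4 and 7. Saa1 too passed the 1 CPM filter in synovium through its TNFdARE level alone. Groups were separate in each tissue, and the difference of 6.37 ± 0.91 (SE, adjusted p = 0.00328) was not called in limma-voom (adjusted p = 0.0723). Lyz1, the lysozyme of Paneth cells, showed the same opposition, at 702, 2892 and 1636 and 5282, 3766 and 5861 CPM in ileum and 549.8, 263 and 364 and 23.9, 17.5 and 30.7 in synovium. Its difference of 5.54 ± 0.68 (SE, adjusted p = 0.00169) held under all alternatives run. Lyz2, the lysozyme of macrophages, is a near-identical neighbour and rose in both tissues, to 4410.4, 3083 and 3857 CPM from 823, 1149 and 986 in synovium. Reads of Lyz1 and Lyz2, and of Saa1 and its copy Saa2, may be split between the copies by the counting, so the values of Lyz1 and Saa1 are uncertain. Saa3, the more distant family member, rose in both, by 5.70 and 8.48, and its difference of 2.79 ± 1.12 (SE, adjusted p = 0.126) was not called.

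The 5 clearest genes that fell in ileum and rose in synovium changed by modest amounts with little spread. Pycard (ENSMUSG00000030793, chr7:127989708-127993867, minus strand), the inflammasome adaptor ASC, was at 156, 175 and 165 CPM in TNFdARE ileum and 207, 192 and 203 in WT, and at 21.3, 20.003 and 21.0 and 8.60, 10.9 and 8.75 in synovium. The groups were separate in both tissues. Rbm47, an RNA-binding protein of epithelium, was at 149.8, 171 and 172 and 256, 229.98 and 245 CPM in ileum and 19.3, 18.6 and 17.3 and 9.50, 11.0 and 10.3 in synovium. Pfkp, the platelet-type phosphofructokinase of glycolysis, was at 352, 367 and 339.7 and 443, 421 and 409 CPM in ileum and 145, 147 and 128 and 84.8, 74.8 and 80.1 in synovium. The tissue differences were 1.42 ± 0.13 (SE, adjusted p = 4.17e-04) for Pycard, 1.41 ± 0.12 (SE, adjusted p = 3.49e-04) for Rbm47 and 1.08 ± 0.11 (SE, adjusted p = 7.50e-04) for Pfkp. Arf6, a GTPase of membrane traffic, and Prr13 completed this group, with differences of 0.86 ± 0.09 (SE, adjusted p = 7.08e-04) and 1.37 ± 0.13 (SE, adjusted p = 4.53e-04).

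The 5 clearest genes in the reverse direction rose in ileum and fell in synovium. Pla1a (ENSMUSG00000002847, chr16:38396117-38433145, minus strand), a phospholipase that makes lysophosphatidylserine, was at 15.4, 15.8 and 15.5 CPM in TNFdARE synovium and 72.6, 73.5 and 81.3 in WT, and at 3.62, 2.75 and 4.71 and 2.15, 1.90 and 2.32 in ileum. The synovium libraries of each genotype lay close together and far from the other genotype, and the difference was -3.08 ± 0.22 (SE, adjusted p = 2.46e-04). Lama3, the alpha chain of laminin-332 in epithelial basement membranes, was at 355, 359 and 366 CPM in TNFdARE ileum and 123, 174 and 129.5 in WT, and 8.64, 8.53 and 8.81 and 12.2, 13.9 and 14.2 in synovium, a difference of -1.97 ± 0.17 (SE, adjusted p = 3.72e-04). Scara3, a scavenger receptor family member, was at 14.1, 10.4 and 13.5 and 4.37, 4.60 and 4.79 CPM in ileum and 392, 348 and 309.7 and 503, 496 and 502 in synovium. Its difference was -1.98 ± 0.17 (SE, adjusted p = 3.67e-04). Syt7, a calcium sensor of vesicle fusion, and Gprc5c, an orphan receptor, differed by -1.93 ± 0.20 (SE, adjusted p = 7.50e-04) and -1.68 ± 0.16 (SE, adjusted p = 6.65e-04). All 10 of these opposite genes kept their calls and directions under all alternatives run, the muscle covariate included.

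Skeletal muscle genes had medians of -0.27 in ileum and -1.65 in synovium over 11 measured in both, with 1 risen and 1 fallen in ileum and 9 fallen in synovium, and 2 were called for the difference, both more negative in synovium. That count was 5 with the replicate block, 0 in limma-voom, 1 with the muscle covariate and 1 (without ileum TNFdARE replicate 3) to 3 (without synovium TNFdARE replicate 1) when single libraries were left out. The muscle covariate is the mean of this same list, so its results for these genes are no separate check of their calls. Ttn (ENSMUSG00000051747, chr2:76703980-76982547, minus strand), the giant spring protein of the sarcomere, was at 16.1, 8.95 and 20.4 CPM in TNFdARE ileum and 0.485, 0.292 and 0.634 in WT, and at 1108, 465 and 277 and 3075, 1106 and 1747 in synovium. It rose in ileum, 4.98 (adjusted p = 0.00370), and fell in synovium, -1.68 (adjusted p = 0.0414), a difference of -6.66 ± 0.94 (SE, adjusted p = 0.00308) that missed the threshold in limma-voom (adjusted p = 0.0515). Neb, nebulin of the thin filament, was at 6.67, 5.14 and 8.65 and 1.46, 1.46 and 2.18 CPM in ileum, with separate groups but no call for the ileum effect, 2.00 (adjusted p = 0.0716). Acta1, skeletal muscle actin and named after its values were seen, did the reverse in ileum, at 2.86, 6.97 and 8.08 CPM in TNFdARE and 74.3, 20.8 and 93.5 in WT. It fell there, -3.40 (adjusted p = 0.0128), and its tissue difference was 1.68 ± 0.94 (SE, adjusted p = 0.261). The summed muscle list was 658 to 882 CPM in TNFdARE ileum and 926 to 1129 in WT. The difference of Neb, -3.65 ± 0.86 (SE, adjusted p = 0.0241), was lost in 3 of the 12 fits without a library, without the low-count filter (adjusted p = 0.0670), in limma-voom (adjusted p = 0.184) and with the muscle covariate (adjusted p = 0.0545).

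Glucocorticoid-responsive genes fell in both tissues, 6 of 11 in ileum and 5 in synovium, with 1 risen in synovium and medians of -0.82 in ileum and -0.94 in synovium. The tissue difference was called for 2 more positive and 1 more negative in synovium, and for 0 with the muscle covariate. Its median over the list was -0.38. Fkbp5, a chaperone of the glucocorticoid receptor and a classic target of it, was the one that rose in synovium, at 53.7, 57.9 and 59.6 CPM in TNFdARE and 34.3, 34.4 and 34.3 in WT. It fell in ileum, at 39.97, 24.8 and 32.9 and 39.6, 64.2 and 70.3 CPM, where TNFdARE replicate 1 reached the level of WT replicate 1, and the difference was 1.56 ± 0.29 (SE, adjusted p = 0.00891). Sgk1, a salt-regulating kinase, was at 81.9, 119.8 and 101 and 283, 300.4 and 385 CPM in ileum and 164, 124 and 203 and 218, 186 and 202 in synovium. It fell in ileum and its synovium groups overlapped, a difference of 1.38 ± 0.27 (SE, adjusted p = 0.0116). Of 17 circadian clock genes 6 were more negative in synovium, and none with the muscle covariate. Tef, a clock-controlled factor, was at 115, 116 and 114 and 188, 194 and 238 CPM in synovium and 24.8, 21.1 and 21.9 and 17.6, 22.4 and 19.2 in ileum, a difference of -1.04 ± 0.16 (SE, adjusted p = 0.00368). The clock count ran from 1 (without ileum WT replicate 2) to 6 (without synovium WT replicate 1) when single libraries were left out, and the hour of collection is not given in the sources used here. With the muscle covariate the adjusted p was 0.112 for Fkbp5, 0.130 for Sgk1 and 0.0515 for Tef.

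For several lists few tissue differences, or none, were called. Of 20 type I interferon stimulated genes none was called in ileum, 1 fell in synovium and 0 had a called difference in edgeR, with a median difference of -0.47. At an unadjusted p under 0.05, 2 of them differed, and DESeq2 called 2. Oxidative phosphorylation genes fell in each tissue, 9 of 18 in ileum and 7 in synovium, with medians of -0.34 in ileum and -0.32 in synovium and 0 called differences in edgeR (2 at an unadjusted p under 0.05, 1 in DESeq2). Among 20 interferon-gamma target and class II antigen presentation genes, 6 rose in ileum, 2 in synovium, and 1 differed. Macrophage genes rose in both tissues, 17 of 20 in ileum, where 1 fell, and 13 in synovium, with medians of 1.93 in ileum and 1.28 in synovium and 3 called differences. That last count ran from 0 (without ileum TNFdARE replicate 3) to 10 (without ileum TNFdARE replicate 2) when single libraries were left out, and was 6 with the replicate block. Of 10 proteins that control decay through AU-rich elements, 2 rose in ileum and 3 in synovium, and 0 had a called difference in edgeR (1 at an unadjusted p under 0.05, 1 in DESeq2). Without TNFdARE ileum replicate 2, the count called was 4 for the type I interferon list, 3 for oxidative phosphorylation and 6 for the interferon-gamma list.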

How the data were processed

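The authors deposited raw counts per gene for 12 poly-A libraries, and these counts were used. Their FPKM table was not used here. Per the labels' protocols, RNeasy Micro RNA was made into stranded TruSeq libraries and sequenced as single reads of 100 cycles on a NovaSeq. Per the submitters' processing notes, cutadapt 1.15, Bowtie2 2.3.3.1 and GRCm38 were used. How reads were counted, and against which annotation, is not given in the sources used here. Of 46603 gene identifiers, 46091 (98.9%) matched GENCODE M21 and took their names and coordinates from it.

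The counts were fitted with edgeR 4.0.16 in R 4.3.3 (filterByExpr, TMM, robust quasi-likelihood fit of 4 group means), and the tissue effects and their difference are contrasts of that single fit. Tests are two-sided with Benjamini-Hochberg adjustment over 16964 genes. CPM are counts per 1000000 TMM-scaled library counts, and a standard error is the log2 value divided by the square root of its F statistic. The test was checked on simulated data with known changes. It called 41% of 2-fold and 83% of 4-fold tissue differences, placed in genes measured in both tissues, and 7 of its 131 calls were false. A difference that was not called can therefore still be present. A count of 3 in a library is 0.1849 to 0.2103 CPM. Single-library values are limited by counting error, and PCR copies were not distinguished.

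Named genes are Tnf, Foxp3 and Il10; the 10 largest called differences in each direction; the 5 with the smallest adjusted p among those called in opposite directions, on each side; the 5 with the largest shared effect and a 95% interval within 1 of 0; and the 2 called members of each of 55 lists whose adjusted p was smallest. Not all are printed, and genes outside the rule were named to describe a list and chosen after their values were seen. The comparison, lists and tests were chosen with earlier results of these data known. No set test was run.

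Same-numbered TNFdARE and WT libraries deviated together within each tissue (correlations 0.164 to 0.256 over 10582 genes in ileum and 0.23 to 0.612 over 10699 in synovium), so the replicate number was used as a block in an alternative. The labels do not say what a number shares; it goes with sex. Across tissues the correlations were -0.135 to 0.127 over 9339 genes. Other alternatives were DESeq2 1.42.0, limma 3.58.1 voom with weights by group, RLE or library size scaling, other filters, an animal block, a muscle covariate, and leaving out each library.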

Additional observations from a re-analysis of the deposited data

Results flagged for a closer look

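The change from WT to TNFdARE differed between ileum and synovium, by the test of the tissue difference itself, for 896 genes more positive and 1154 more negative in synovium. The 10 genes below are those with the smallest adjusted p among genes that passed the test in each tissue in opposite directions. In synovium minus ileum terms, the difference on the log2 scale was 1.41 for Rbm47, 1.42 for Pycard, 1.37 for Prr13, 0.86 for Arf6 and 1.08 for Pfkp, which fell in ileum and rose in synovium. It was -3.08 for Pla1a, -1.98 for Scara3, -1.97 for Lama3, -1.68 for Gprc5c and -1.93 for Syt7, which rose in ileum and fell in synovium. Each kept its direction and its call without any single library and with the muscle covariate.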

How the results depend on the processing

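The number of genes more positive in synovium was 896, and became 1607 in DESeq2, 509 with the animal block, 119 with the muscle covariate and 472 to 1814 when single libraries were left out. For genes more negative in synovium, 1154 became 593, 79 and 484 to 1692 under the last 3 of these. With the replicate block the numbers were 1037 and 1583. Ileum counts of 1827 risen and 895 fallen became 856 and 363 with the animal block, and 950 to 2402 and 261 to 2421 when single libraries were left out. DESeq2 gave 1709 fallen in ileum and library size scaling 449. Synovium counts of 1728 and 1928 became 635 and 659 with the animal block and 220 and 72 with the muscle covariate, and 1047 to 2410 and 900 to 2071 when single libraries were left out. The cause of these shifts was not tested. Of 63 called genes named here, 26 kept direction and call under each alternative run. DESeq2, RLE and library size scaling each ended 0 of these calls, the replicate block 1 (Ccl17), limma-voom 10, the animal block 8 and the muscle covariate 34; none turned its direction. Among uncalled genes, estimates near 0 turned sign. Under the muscle covariate it was 0.21 for C1s1, 0.07 for Arl4c, 0.03 for Adamts7 and 0.22 for Cxcl3, and limma-voom gave 0.69 for Cxcl3. When single libraries were left out, it ran from -0.98 to 0.02 for Tnf, -0.84 to 0.11 for Il10, -0.02 to 0.40 for Msr1, -0.34 to 0.13 for C1s1, -0.25 to 0.23 for Arl4c, -0.25 to 1.64 for Cxcl1, -2.55 to 0.01 for Cxcl2 and -2.16 to 0.80 for Cxcl3. Genes with fewer than 3 counts in the WT libraries of a tissue have differences whose size is limited by depth.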

Other observations

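Further immune lists had more negative effects in synovium. Of 14 dendritic cell genes 10 rose in ileum and 3 in synovium, with medians of 1.41 in ileum and 0.36 in synovium, and 4 were called for the tissue difference (2 (without ileum TNFdARE replicate 3) to 9 (without ileum TNFdARE replicate 2) when single libraries were left out, and 0 with the muscle covariate). Of 9 genes of NK and cytotoxic lymphocytes 1 rose in ileum, 1 rose and 2 fell in synovium, and 4 were called (1 (without ileum TNFdARE replicate 3) to 6 (without ileum TNFdARE replicate 2) when single libraries were left out, and 0 with the muscle covariate). Ccr3, the eotaxin receptor of eosinophils, was at 2.03, 1.69 and 2.88 CPM in TNFdARE ileum and 0.832, 0.657 and 1.13 in WT, and at 2.94, 3.69 and 3.88 and 5.20, 14.9 and 8.68 in synovium. It fell in synovium, and the difference of -2.78 ± 0.55 (SE, adjusted p = 0.0115) held under all alternatives run. Hsph1, a heat shock protein of the HSP110 family, fell in ileum, at 41.6, 45.7 and 41.3 CPM in TNFdARE and 87.2, 132 and 198 in WT, and overlapped in synovium, at 45.9, 31.7 and 52.8 and 31.8, 35.0 and 36.2. The WT ileum values spread over more than the whole range of the TNFdARE ileum values, and the difference was 2.04 ± 0.37 (SE, adjusted p = 0.00877), lost with the muscle covariate (adjusted p = 0.112).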
